A study of Homo sapiens with 4 samples.

Results

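The 7 human sirtuins (SIRT1 to SIRT7) and NAMPT, the enzyme that recycles their cosubstrate, were followed in GIST-T1 cells after transfection with miR-34a. Every array probe annotated with exactly one of these 8 gene names was taken, which gave 16 of the 50599 probes on the array. Of these, 15 were well above background on all 4 arrays and were tested, and the remaining 1, a SIRT5 probe, was well above background on no array. GIST-T1 is an established human cell line from a gastrointestinal stromal tumor (GIST), a tumor of the interstitial cells of Cajal that is usually driven by the receptor tyrosine kinases KIT or PDGFRA. Both groups were GIST-T1 cells, which by the study's account carry a gain-of-function KIT mutation, with no other alteration named in the labels. By nucleofection, 3000000 cells received 100 pmol of a mimic, a synthetic RNA that stands in for the mature microRNA, of either miR-34a or a negative control, and total RNA was collected after 48 h. Each group held 2 one-color Agilent arrays, and since the labels do not say that the replicates were separate cultures, the p-values measure the spread between these samples only, which may be technical. A single line and a transiently supplied mimic, which was not compared here with the cells' own miR-34a, limit the groups as a model.

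Sirtuins remove acetyl and other acyl groups from lysines of histones and other proteins, and they consume NAD in each reaction. NAMPT converts nicotinamide, the by-product of that reaction, to nicotinamide mononucleotide, the rate-limiting step by which most human cells salvage NAD. SIRT1, SIRT6 and SIRT7 are mainly nuclear, SIRT2 is mainly cytosolic, and SIRT3, SIRT4 and SIRT5 are mitochondrial. SIRT1 and NAMPT are among the known targets of the microRNA miR-34a.

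A microRNA finds its targets mainly through the seed, its bases 2 to 8. The mature sequence of miR-34a is shown beside 2 others with the same seed, from RefSeq (GRCh38.p14), because the seed defines what the mimic can pair with, and it is in capitals. miR-34c-5p belongs to the same seed family.
hsa-miR-34a-5p: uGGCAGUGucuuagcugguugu
hsa-miR-449a: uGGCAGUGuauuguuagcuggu
hsa-miR-449b-5p: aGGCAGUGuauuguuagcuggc
The first lies on chromosome 1 (9151735 to 9151756, minus strand), and the other sequences lie together on chromosome 5 (from 55170586 and from 55170706). The letters that pair with the whole seed, CACTGCC, occurred on the given strand of the probe in 0.435% of all probes on the array and in 0 of the 16 sirtuin and NAMPT probes. The shorter match ACTGCC, which lies within it, occurred in 1.3% of all probes and again in 0 of the 16. A probe covers 60 bases of a transcript, so this describes the probes and not the transcripts.

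The arrays were alike in overall signal. Between 41.8% and 45.2% of the probes were well above background on an array, and the replicates of a group differed with an SD, over tested probes, of 0.337 log2 units with the mimic and 0.290 with the control. All 4 arrays came from 1 slide. The 7 GIST genes on the marker list, KIT among them, were detected on all arrays, as were EPCAM, CD14 and DES among the markers of other cell types reported here. CDH1, KRT19, KRT5, PECAM1 and MYH11 were detected on no array. As a scale for the effect of the mimic, the PDGFRA probe was 2.90-fold lower with the mimic (log2 difference -1.53, SE 0.08, limma adjusted p = 0.0950). This adjusted p was the smallest that any of the 21453 tested probes reached, and PDGFRA shared it with other probes. The study had picked PDGFRA among predicted miR-34a targets that were lower on its arrays, so it marks a large effect and not a typical one. It also reported the decrease by quantitative RT-PCR and a luciferase reporter assay. The 5th percentile of the differences of all tested probes was -0.57. Values below are log2 signals relative to the 75th percentile of each array, and differences are the mimic mean minus the control mean on that scale. Because probes differ in how brightly they bind, the level of 1 probe was not set against that of another, and no order of levels among the 8 genes is given.

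SIRT1, the nuclear deacetylase of FOXO factors and histones, was lower with the mimic, but by less than 1.5-fold and without passing the adjusted test. Its single probe (NM_012238, hg19 chr10:69677560-69677619, plus strand) read 0.26 and 0.05 on the mimic arrays and 0.52 and 0.46 on the control arrays. Both mimic arrays lay below both control arrays, and the mimic arrays differed from each other by 0.21, more than the control arrays did (0.06). The difference was -0.33 (SE 0.10, n = 2 per group), a 1.26-fold lower signal, and its 95% interval ran from 1.53-fold to 1.03-fold lower. By limma the unadjusted p was 0.033 and the adjusted p was 0.176, with a range of 0.103 to 0.455 over the alternatives. The interval therefore includes a 1.5-fold decrease as well as one close to no change, and in RNA of whole cultures fewer cells with a transcript and less of it per cell cannot be told apart. Of all tested probes, 12.4% had a difference at least as low as that of SIRT1. In the processed signal before scaling, the probe gave 174 and 151 with the mimic and 210 and 195 with the control.

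NAMPT had 3 probes, and they did not move together. The brightest (NM_005746, chr7:105888793-105888852, minus strand) read 0.85 and 0.93 with the mimic and 1.21 and 1.03 with the control. The mimic arrays lay below the control arrays, with negative control 2 the nearer of the controls. The difference was -0.23 (SE 0.09), or 1.17-fold lower, with a 95% interval from -0.50 to 0.04 and a limma adjusted p of 0.248, and without negative control 1 it was -0.14. The second probe of the same transcript (chr7:105912977-105913036) read -0.08 and -0.06 with the mimic and -0.01 and -0.06 with the control. These groups were separated by less than the replicates of the control differed, and the difference was -0.04 (SE 0.06, adjusted p = 0.675), with an interval that reached no lower than -0.20. The third probe, designed on the cDNA AK023341 and lying between the other two on the chromosome (chr7:105900561-105900620), read -1.70 and -1.46 with the mimic and -1.97 and -1.43 with the control. Here the groups overlapped, the difference was 0.12 (SE 0.23, adjusted p = 0.764), and it turned to -0.15 without negative control 1. NAMPT was thus lower in value on 2 of its 3 probes, and of all tested probes 19.1% had a difference at least as low as that of the brightest and 44.1% one at least as low as that of the second.

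**Figure D1:**
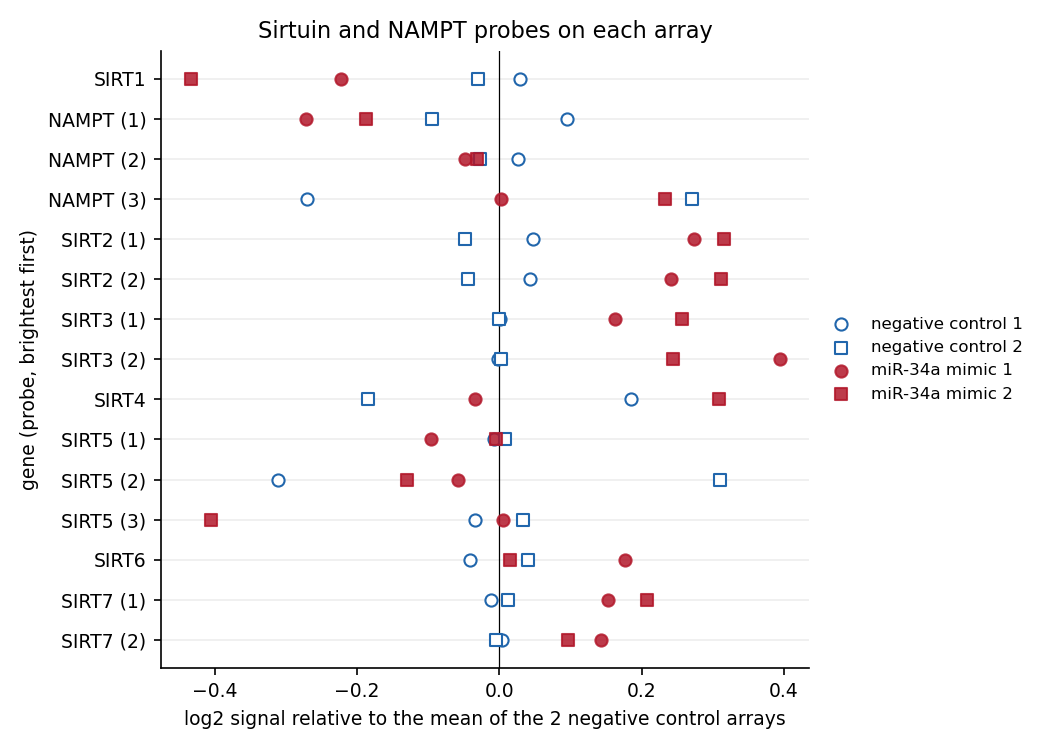
Log2 signal of the 15 tested sirtuin and NAMPT probes on each array (x axis, relative to the mean of the 2 negative control arrays, in log2 units; y axis, probes by gene, numbered from the brightest). Filled red points are miR-34a mimic arrays and open blue points negative control arrays, with circles for replicate 1 and squares for replicate 2; both red points lie left of both blue points for SIRT1 and the first 2 NAMPT probes and right of them for the SIRT2, SIRT3 and SIRT7 probes, and red and blue overlap for the others.

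SIRT2, the main cytosolic sirtuin and a deacetylase of alpha-tubulin, was higher with the mimic on both of its probes. The first (NM_012237, chr19:39370273-39370332, minus strand) read 1.03 and 1.07 with the mimic and 0.80 and 0.71 with the control. The second (NM_001193286, chr19:39379734-39379793), which lies in another part of the gene, read 0.50 and 0.57 with the mimic and 0.30 and 0.21 with the control. On each probe both mimic arrays lay above both control arrays. The differences were 0.29 (SE 0.06), or 1.23-fold, and 0.28 (SE 0.07), or 1.21-fold, with limma adjusted p-values of 0.131 and 0.141. The first of these was the lowest adjusted p among the sirtuin and NAMPT probes, and the 95% interval of that probe ran from 1.08-fold to 1.40-fold higher, below 1.5-fold. With a variance trend in the fit, its adjusted p was 0.065.

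The other nuclear sirtuins were SIRT6, a chromatin deacetylase that acts in DNA repair and telomere upkeep, and SIRT7, a nucleolar enzyme linked to ribosomal RNA transcription. The SIRT6 probe (NM_016539, chr19:4174516-4174575) read 1.98 and 1.82 with the mimic and 1.76 and 1.84 with the control. Negative control 2 lay within the mimic arrays, and the difference of 0.10 (SE 0.08) had a limma adjusted p of 0.517 and ranged from 0.02 without miR-34a mimic 1 to 0.18 without miR-34a mimic 2. The brighter SIRT7 probe (NM_016538, chr17:79870239-79870298) read 2.91 and 2.97 with the mimic and 2.75 and 2.77 with the control. The other SIRT7 probe, which shares 5 bases with it (chr17:79870294-79870353), read 2.54 and 2.49 with the mimic and 2.40 and 2.39 with the control. The mimic arrays were above the control arrays on both SIRT7 probes. The differences were small, 0.18 (SE 0.06, adjusted p = 0.185) and 0.12 (SE 0.05, adjusted p = 0.281), and their intervals ended at 1.27-fold and 1.21-fold higher.

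Among the mitochondrial sirtuins, SIRT3, the main mitochondrial deacetylase, was higher with the mimic on both of its probes, whereas SIRT4 and SIRT5 gave no clear direction. The brighter SIRT3 probe (NM_012239, chr11:216148-216207, minus strand) read 2.48 and 2.58 with the mimic and 2.32 on each control array. The SIRT3 probe on the transcript ENST00000529937 (chr11:224067-224126) read 0.52 and 0.37 with the mimic and 0.12 and 0.13 with the control. Both groups were separate on both probes, and the control arrays agreed to within 0.01. The differences were 0.21 (SE 0.06), or 1.16-fold (limma adjusted p = 0.177), and 0.32 (SE 0.08), or 1.25-fold (adjusted p = 0.140). With normexp background correction the first difference was 0.14.

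SIRT4, a mitochondrial sirtuin with weak deacetylase activity that restrains glutamate dehydrogenase, had 1 dim probe (NM_012240, chr12:120750879-120750938). It read -1.62 and -1.28 with the mimic and -1.40 and -1.77 with the control. The groups overlapped, and the difference of 0.14 (SE 0.20, limma adjusted p = 0.682) changed sign when miR-34a mimic 2 was left out (-0.03) or negative control 2 (-0.05). SIRT5, which removes succinyl, malonyl and glutaryl groups, had 3 tested probes, all slightly lower on average. The brightest (NM_012241, chr6:13612209-13612268, plus strand) read 1.24 and 1.33 with the mimic and 1.33 and 1.34 with the control, a difference of -0.05 (SE 0.06, adjusted p = 0.636). Its interval reached no further than 1.17-fold lower, and the difference was -0.005 without miR-34a mimic 1 and -0.10 without miR-34a mimic 2. The second probe of that transcript (chr6:13614629-13614688) read -0.29 and -0.36 with the mimic and -0.54 and 0.08 with the control, a difference of -0.09 (SE 0.24, adjusted p = 0.824) that became 0.22 without negative control 2. The probe for NM_031244 (chr6:13588636-13588695) read -0.49 and -0.90 with the mimic and -0.53 and -0.46 with the control, a difference of -0.20 (SE 0.16, adjusted p = 0.487) that came from miR-34a mimic 2 alone and was 0.01 without it. A further NM_031244 probe (chr6:13605650-13605710) was above background on no array, with -5.10 and -5.31 against -5.35 and -5.30, and no fold is given for it.

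**Figure D2:**
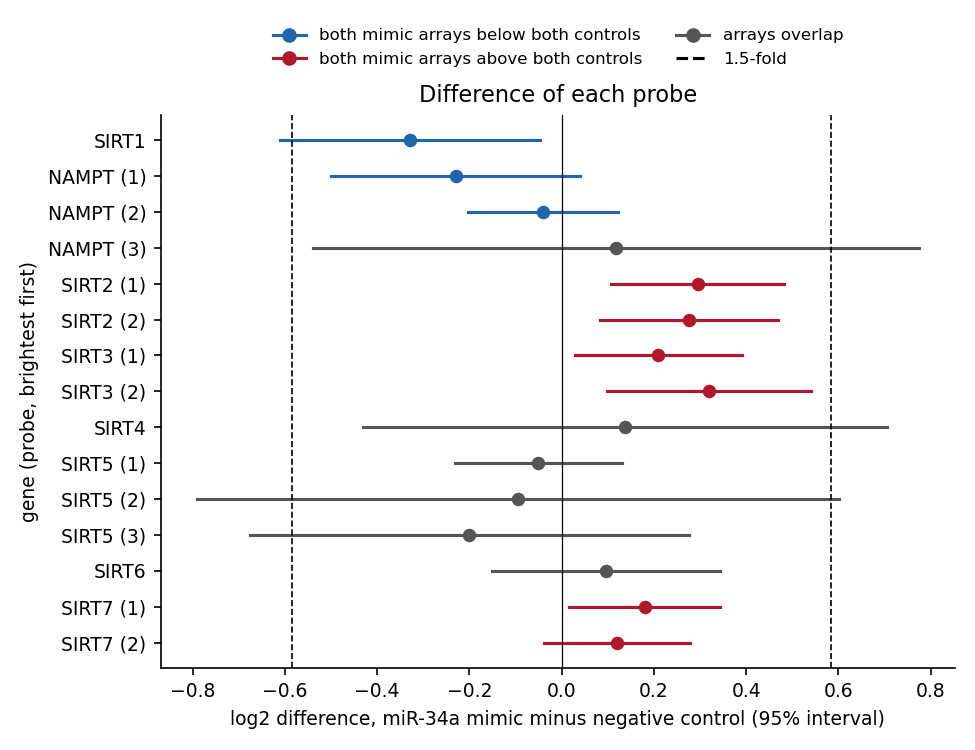
Log2 difference of each tested probe (x axis, miR-34a mimic minus negative control) with its 95% interval from limma, by gene and probe (y axis), n = 2 arrays per group. Blue marks probes with both mimic arrays below both controls, red those with both above, grey those that overlap, and dashed lines 1.5-fold; every point lies between -0.33 and 0.32, inside the dashed lines.

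Over the whole family, the 15 tested probes had differences between -0.33 (SIRT1) and 0.32 (the second SIRT3 probe). Of these, 6 were lower and 9 higher with the mimic, and their median was 0.12, against a median of -0.01 over all tested probes, of which 51.5% were lower. The fold threshold of 1.5 was passed downward by 0 of the 15, where 4.79% of all tested probes passed it, and upward by 0, where 2.11% did. At an unadjusted limma p under 0.05, 1 probe was lower (SIRT1), against 11.6% of all tested probes. At the same p, 5 probes were higher (the SIRT2 and SIRT3 probes and the brighter SIRT7 probe), against 12.7%. Both mimic arrays lay below both control arrays for 3 of the 15 (SIRT1 and 2 NAMPT probes), where 30.1% of all tested probes did so. Both lay above for 6 of the 15 (the SIRT2, SIRT3 and SIRT7 probes), where 30.4% did so. Probes of 1 gene report on the same gene, though not always on the same annotated transcript, so the 6 stand for 3 genes.

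After Benjamini-Hochberg adjustment over all tested probes, limma called 0 of the 15 and 0% of all probes, and 2495 probes that were lower and 2721 that were higher had an unadjusted p under 0.05. With a variance trend in the fit, 7.4% of all tested probes passed an adjusted p of 0.05, and again 0 of the 15 did, with 0.065 (SIRT2) the lowest of them. An ordinary test of each probe on its own called 1 probe of the whole array after adjustment, and it was not one of the 15. With 2 arrays against 2, an exact permutation test cannot give a two-sided p below 0.33, so the calls rest on the spread that limma pools over probes. The 95% intervals of SIRT1, the third NAMPT probe, SIRT4 and the 2 dimmer of the 3 tested SIRT5 probes reached past 1.5-fold, so that for these a change of that size lay within the error of 2 arrays per group.

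**Figure D3:**
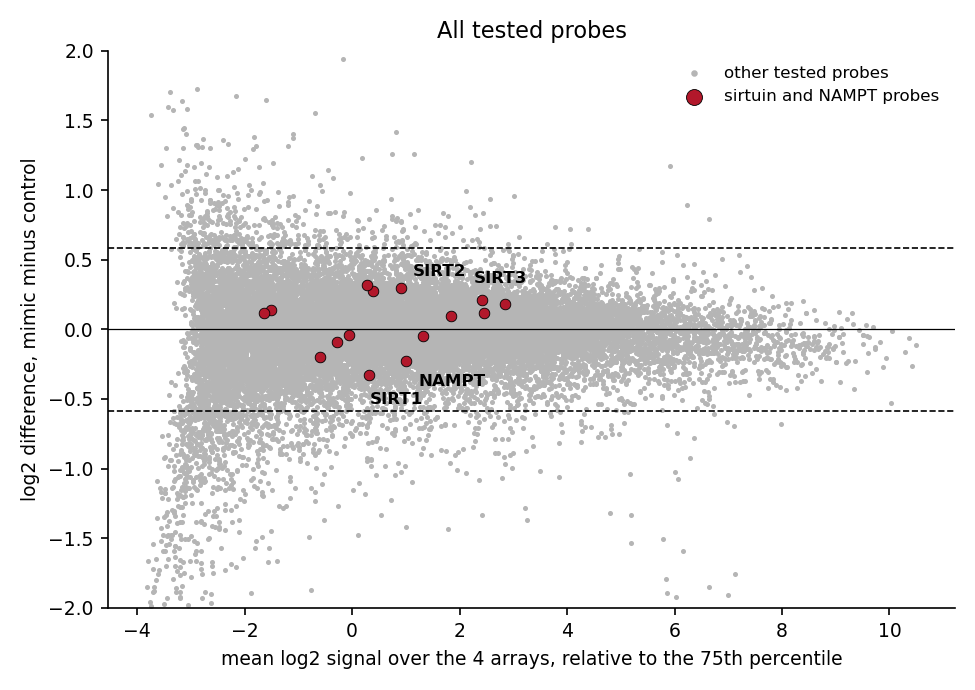
Difference of every tested probe (y axis, log2, miR-34a mimic minus negative control) against its mean log2 signal over the 4 arrays (x axis, relative to the 75th percentile of each array). Red points are the 15 sirtuin and NAMPT probes and grey points all others, of which 54 lie outside the plotted range of 2 log2 units; dashed lines mark 1.5-fold, and the red points lie within the band of grey points at their signal.

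The sign of the brightest SIRT1, NAMPT, SIRT2, SIRT3 and SIRT7 probes was the same under every alternative that was run, several of which leave the difference itself as it is. The same held for SIRT6, the brightest SIRT5 probe and the second NAMPT probe, whose differences were smaller. A kept sign was therefore not particular to the probes with the larger differences. SIRT1 ranged from -0.43 without miR-34a mimic 1 to -0.22 without miR-34a mimic 2, so the lower of the 2 mimic arrays carried the larger part of its difference. The brightest SIRT2 probe ranged from 0.25 to 0.34 and the brighter SIRT7 probe from 0.15 to 0.21.

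**Figure D4:**
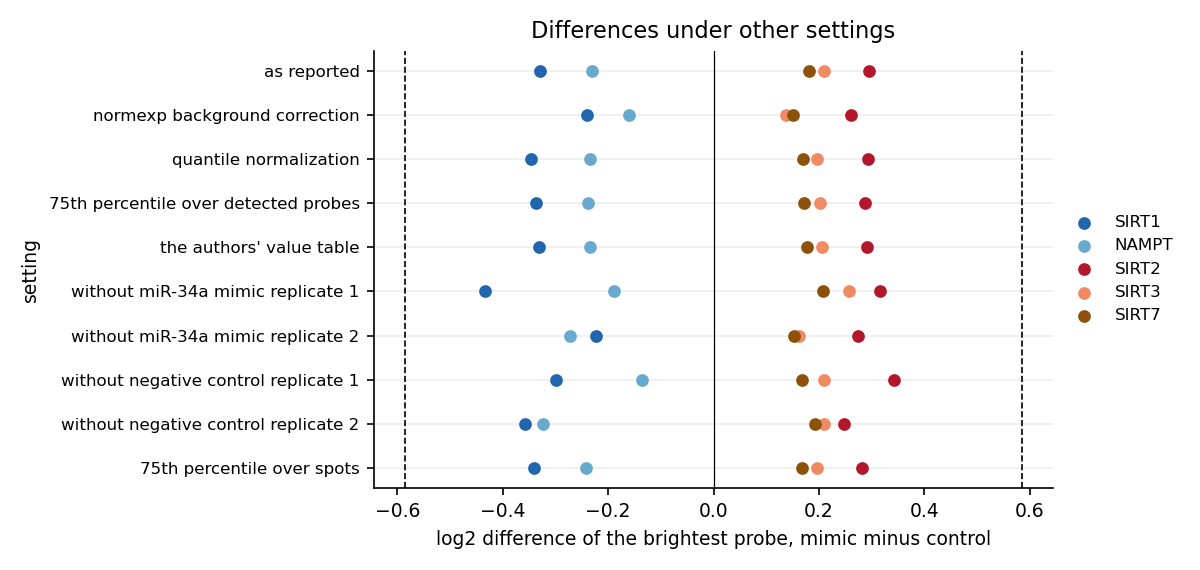
Log2 difference (x axis, miR-34a mimic minus negative control) of the brightest probe of SIRT1, NAMPT, SIRT2, SIRT3 and SIRT7 as reported and under each alternative that changes the values (y axis), including leaving out each array. Dashed lines mark 1.5-fold; the SIRT1 and NAMPT points stay left of zero and the others right of it, all inside the dashed lines.

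The enzymes that make NAD around NAMPT were read from a list of 22 genes, each by its brightest probe. Of these, 11 were tested, 4 lower and 7 higher, with a median difference of 0.12 against -0.01 over all 16182 tested gene names. None passed 1.5-fold, where 4.82% of all genes did downward and 1.96% upward. PNP, the purine nucleoside phosphorylase that also splits nicotinamide riboside, was 5.00 on each mimic array and 5.33 and 5.29 on the control arrays. It was the lowest of the list (-0.31, limma adjusted p = 0.107, and 0.018 with a variance trend). NNMT, which methylates nicotinamide and so removes it from salvage, followed at -0.22 (adjusted p = 0.369). NMRK1, the nicotinamide riboside kinase (C9orf95 in the array annotation), was the highest, at -1.63 and -1.61 against -2.19 and -2.10 (0.53, adjusted p = 0.095), but its other probe gave -0.04. NADK2, the mitochondrial NAD kinase (NADKD1 on the array), read 1.31 and 1.44 against 1.02 and 0.93 (0.40, adjusted p = 0.118, and 0.042 with a variance trend). With that trend PNP and NADK2 were the 2 genes called of the 11, where 8.23% of all genes were called. NMNAT1, the nuclear adenylyltransferase that takes the product of NAMPT on to NAD, differed by -0.02 (SE 0.19), and its other probe gave 0.19 (SE 0.13). NAPRT (NAPRT1 on the array), the entry enzyme of the nicotinic acid route, differed by 0.16 (SE 0.08). The cytosolic NMNAT2 and the mitochondrial NMNAT3 were each well above background on 1 array only and were not tested.

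Other enzymes that consume NAD were tested for 16 of 23 listed genes. Of these, 7 were lower and 9 higher, the median was 0.03, and none passed 1.5-fold or an adjusted p of 0.05 with either variance model. PARP1, which makes most cellular poly(ADP-ribose), read 4.56 and 4.69 with the mimic and 4.72 and 4.74 with the control (-0.11, limma adjusted p = 0.416). The lowest values were those of the mono-ADP-ribosyltransferase PARP11 (-0.30) and of SARM1 (-0.25), the NAD hydrolase of axon degeneration. The highest were PARP9 (0.31) and PARP10 (0.30), the latter with a second probe at -0.25. CD38, the main NAD hydrolase of the cell surface, was well above background on no array.

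The zinc-dependent histone deacetylases, which remove acetyl groups from lysines by hydrolysis, without NAD, included differences larger in value than any of the sirtuins. Of 11 genes, 10 were tested, 4 lower and 6 higher, with a median of 0.12. HDAC1, a catalytic subunit of nuclear corepressor complexes, read 4.73 and 4.74 with the mimic and 5.41 and 5.40 with the control. The groups were far apart for their spread, the difference was -0.67 (SE 0.05), or 1.59-fold lower, and the limma adjusted p was 0.095 and 0.007 with a variance trend. HDAC2, its close paralog, differed by -0.07 (adjusted p = 0.490) on its bright probe. Its second probe was too dim to be called above background on the mimic arrays, with means of -3.76 with the mimic and -2.55 with the control. It entered the test through the control arrays only, a selection that favors a lower value with the mimic, and no fold is given for it. The control arrays themselves read -2.92 and -2.19, and the probe did not pass the adjusted test (limma adjusted p = 0.135). HDAC10, a polyamine deacetylase, read -1.88 and -1.90 against -2.55 and -2.58, and was 1.59-fold higher (0.67, adjusted p = 0.095, and also 0.095 with a variance trend). HDAC6, which shares alpha-tubulin as a substrate with SIRT2, read 2.20 and 2.13 against 1.63 and 1.65 (0.52, adjusted p = 0.095, and 0.014 with a variance trend), while its other probe gave -0.16. HDAC5, named after its value was seen because with HDAC1 and HDAC6 it made up the 3 of the 10 genes called with a variance trend, where 8.23% of all genes were, differed by 0.51 (adjusted p = 0.110, and 0.044 with the trend). Whether HDAC1 or HDAC6 differed more than the sirtuins was not tested.

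**Figure D5:**
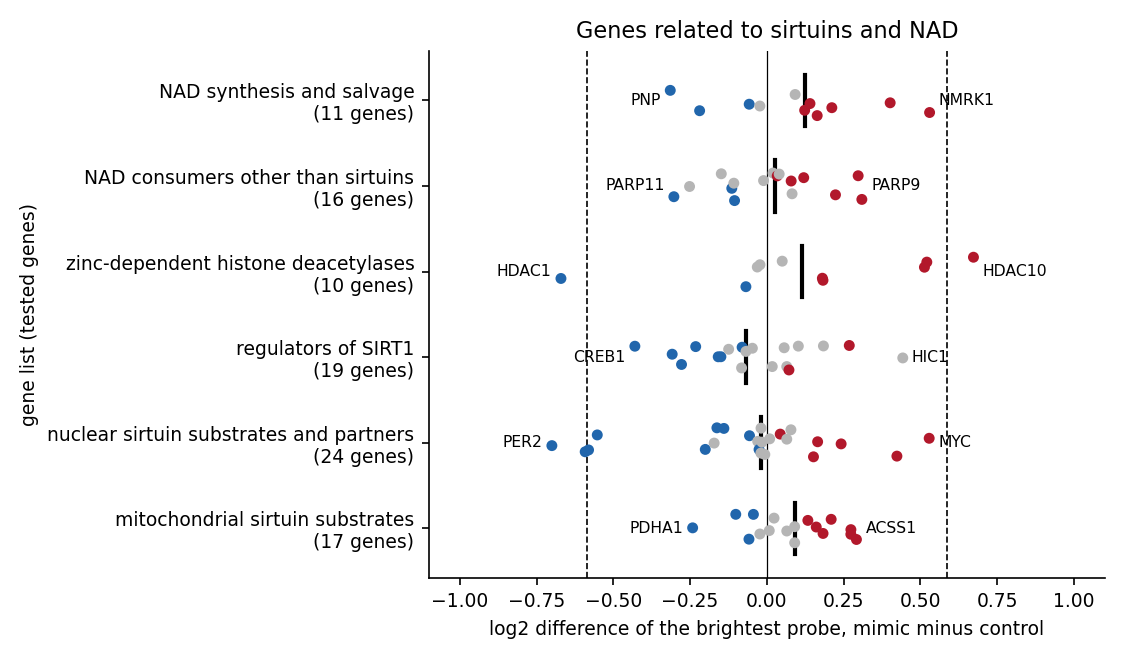
Log2 difference (x axis, miR-34a mimic minus negative control) of the brightest probe of each tested gene, by gene list (y axis, number of tested genes in brackets), with the lowest and highest gene named. Blue points have both mimic arrays below both controls, red points both above and grey points overlap; black bars are list medians, dashed lines 1.5-fold, and the list medians lie between -0.07 and 0.12.

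Genes that control SIRT1 were tested for 19 of 20 listed, 11 lower and 8 higher, with a median of -0.07, and none passed 1.5-fold or the adjusted test with either variance model. CDKN1A, a cell cycle inhibitor gene looked at beside this list, was well above background on no array. CREB1, an activator of SIRT1 transcription, was the lowest, at -0.10 and 0.00 with the mimic and 0.47 and 0.29 with the control (-0.43, limma adjusted p = 0.130). MDM2, a ubiquitin ligase, was at -0.31 (adjusted p = 0.133), with its 4 probes between -0.38 and 0.08. HIC1, a repressor of SIRT1 transcription, read 5.49 and 5.59 with the mimic and 5.66 and 4.53 with the control. Negative control 2 lay below the other 3 arrays, and the difference was 0.44 (SE 0.43, adjusted p = 0.548). CCAR2, the inhibitor of SIRT1 protein also known as DBC1 (KIAA1967 on the array), was higher on both mimic arrays, at -0.16 and -0.05 against -0.34 and -0.40 (0.27, adjusted p = 0.155).

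Nuclear substrates and partners of sirtuins were tested for 24 of 25 genes, 15 lower and 9 higher, with a median of -0.02. Passing 1.5-fold downward were 2 of the 24, against 4.82% of all genes. PER2, a clock repressor deacetylated by SIRT1, read 1.04 and 1.21 with the mimic and 1.84 and 1.81 with the control, a 1.62-fold lower signal (-0.70, limma adjusted p = 0.095, and 0.015 with a variance trend), with its other probe at -0.24. RBBP8 (CtIP), a DNA end resection factor, read 0.63 and 0.98 against 1.59 and 1.20 (-0.59, adjusted p = 0.202). MYC was the highest, at -1.74 and -1.72 against -2.33 and -2.19 (0.53, adjusted p = 0.095), followed by the liver X receptor NR1H2 (0.42, adjusted p = 0.184). MYCN, named after its value was seen because it and PER2 were the 2 of the 24 genes called with a variance trend (8.23% of all genes were), lay opposite to MYC in value, with -0.58 (adjusted p = 0.095, and 0.010 with the trend). The difference between MYC and MYCN was not tested.

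Mitochondrial substrates were tested for 17 of 21 genes, 5 lower and 12 higher, with a median of 0.09, and none passed 1.5-fold. ACSS1, the mitochondrial acetyl-CoA synthetase activated by SIRT3, read 1.92 and 1.97 with the mimic and 1.63 and 1.67 with the control. Both of its mimic arrays lay above the controls (0.29, limma adjusted p = 0.120), it was the 1 gene of the 17 called with a variance trend (adjusted p = 0.042), against 8.23% of all genes, and its other probe gave 0.01. MLYCD, the malonyl-CoA decarboxylase regulated by SIRT4, was next at 0.27 (adjusted p = 0.265). PDHA1, a pyruvate dehydrogenase subunit, was the lowest at -0.24 (adjusted p = 0.419), and PPIF (cyclophilin D) was at -0.10 (adjusted p = 0.382).

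The pattern of SIRT1 over the 4 arrays was compared with those of all 20068 probes that were well above background on every array, by the root mean square difference of signals centered on their means. The nearest were TEX30 (C13orf27 on the array, 0.008 log2 units), the noncoding transcript XLOC_005774 (0.008) and BMPR1A, a BMP receptor (0.012). TEX30 read 2.53 and 2.30 with the mimic and 2.78 and 2.73 with the control, a difference of -0.34 that is close to that of SIRT1. For the brightest NAMPT probe the nearest were the transcript ENST00000429284 (0.009), C3orf14 (0.012) and PHC2, a Polycomb subunit (0.014). With 4 arrays such likeness was common, as 198 probes lay within 0.05 log2 units of SIRT1 and 270 within 0.05 of NAMPT.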

How the data were processed

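RNA of GIST-T1 cells was read on 4 one-color arrays (SurePrint G3 Human GE v2), 2 after the miR-34a mimic and 2 after the control mimic, grouped by the sample labels. For each spot the authors deposited the intensity from Agilent Feature Extraction 10.7.3.1, with background subtraction and flags but no scaling between arrays, and a table of the same intensity values, within 0.496% of the scanner output; 0 of its columns belonged to no sample. The authors named GeneSpring GX and a 1.5-fold threshold, their statistics section names general tests for continuous variables and none for the arrays, and their scaling and dim-probe filter are not given in the sources used here.

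Control and outlier spots were left out (293 to 424 of 58717 spots per array; 0 were saturated and 0 member spots were flagged) and the log2 spots of a probe were averaged. The 75th percentile over probes was subtracted. A probe counted as detected on an array where 50% or more of its spots were well above background. Probes detected on the 2 arrays of either group and measured on all 4 arrays were tested (21453 probes) with limma 3.58.1 in R 4.3.3 (lmFit, eBayes, two-sided, Benjamini-Hochberg), tested first on simulated data. Tables and figures used Python 3.11.15, pandas 2.3.3 and matplotlib 3.10.9. The number of arrays limits the precision. Slide and scan were the same for all arrays and could not serve as a block.

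The members, gene lists and alternatives were chosen with earlier results of these data known. The percentile over probes (in place of spots) and the 50% rule (in place of any spot) were set after values had been seen, to bring the counts of detected probes to those of an earlier processing of the same files, and the first choices were kept as alternatives chosen after seeing the data. The other alternatives were normexp (offset 50), quantile normalization, the percentile over probes detected on all arrays, no dim filter, only probes detected on all 4 arrays, the authors' table, a variance trend, a block for the replicate number, an ordinary test per probe and leaving out each array. Named were all members, the 2 lowest and 2 highest genes of each list by the brightest probe, CDKN1A, HIC1, CCAR2, NMNAT1 to NMNAT3, NAPRT, PARP1, CD38, the 3 genes most alike to SIRT1 and to NAMPT, and PDGFRA; any other is marked. Some items, and a gene list read with one of them, are not reported here. Positions are hg19, from the array annotation; miRNA sequences are from RefSeq.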

Additional observations from a re-analysis of the deposited data

How the results depend on the processing

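Over 15 alternatives, 220 of 225 differences of the sirtuin and NAMPT probes kept their direction and their side of the adjusted p of 0.05, no such probe passed 1.5-fold or that adjusted p under any of them, and 5 differences changed sign, each when 1 array was left out. These were the third NAMPT probe without negative control 1 (-0.152), SIRT4 without miR-34a mimic 2 (-0.0338) or without negative control 2 (-0.0478), the second SIRT5 probe without negative control 2 (0.217) and the NM_031244 SIRT5 probe without miR-34a mimic 2 (0.00529). The cause was not tested. The changes of the detection filter, the replicate block, the variance trend and the ordinary test leave the difference itself as it is, so its sign could not change there. Most alternatives called 0 probes of the whole array, so there no probe could change its side of the adjusted p. Over the arrays left out, the third NAMPT probe ranged from -0.152 to 0.388, SIRT4 from -0.0478 to 0.323, these SIRT5 probes from -0.405 to 0.217 and from -0.405 to 0.00529, SIRT1 from -0.434 to -0.223, the brightest NAMPT probe from -0.324 to -0.135, the second from -0.0671 to -0.0132, SIRT6 from 0.0153 to 0.176 and the brightest SIRT5 probe from -0.0960 to -0.00481. Scaling and background settings moved the median of all tested probes to between -0.0157 and 0.0166. Over the whole array, limma called 0 probes as run, 877 with normexp and 1588 with a variance trend.

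Same-numbered deviations correlated at -0.0276 over tested probes, so no shared effect of the replicate number was seen. The labels do not say whether same-numbered samples were prepared together, and this correlation cannot settle it. With the replicate block the SIRT1 difference stayed at -0.329, and 1 lower and 3 higher probes had an unadjusted p under 0.05, in place of 1 and 5. The lowest adjusted p under the block was 0.239. The median of the NAD synthesis list turned to -0.0428 and that of the NAD consumers to -0.00946 when dim probes were kept, and the zinc deacetylase median was then 0.0498 and the mitochondrial substrate median 0.0299. Quantile normalization gave the NAD consumers a median of 0.0554.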
